A study of Homo sapiens with 4 samples.

Results

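Histone genes were followed in MM.1S cells, an established human multiple myeloma line, after exposure to JG342, an allosteric inhibitor of the HSP70 chaperones. One group received 350 nM JG342 and the other received the solvent DMSO, and both were collected at 26 h. Each treatment had 2 libraries, described by the submitters as biological duplicates, so 4 RNA sequencing libraries were compared. Genes were taken as histone genes by symbol: names beginning HIST1H to HIST4H, H2AFJ, H2AFV, H2AFX, H2AFY, H2AFZ, H3F3A, H3F3B, H3F3C or H1FX, with any continuation of the H2AF names. This gave 61 of the 16057 genes in the deposited table, of which 51 lie in the HIST clusters (called clustered here) and 10 are variant genes outside them. Of these, 28 averaged 1 TPM or more across the libraries and were tested, namely 20 clustered and 8 variant genes. TPM is a transcript level per length, expressed relative to everything measured in the same library.

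Histones are the proteins around which DNA is wound. The core families H2A, H2B, H3 and H4 form the nucleosome and the linker family H1 binds the DNA between nucleosomes. The clustered genes supply most new histone protein in S phase, and their main transcripts are unusual in ending at a conserved RNA hairpin, the histone stem-loop, without a poly(A) tail. The hairpin is bound by SLBP, which steers processing, translation and decay of these transcripts. Variant genes such as H3F3A and H2AFZ are transcribed throughout the cell cycle into ordinary polyadenylated mRNA. Several clustered genes can also make a longer polyadenylated form, which is seen mainly in cells that divide slowly or have left the cycle. RNA sequencing from poly(A)-selected RNA therefore misses most clustered histone transcripts. The labels name total RNA as the starting molecule, and the selection step of the libraries is not given in the sources used here.

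The stem-loop sites of 5 members are shown because the hairpin is the known mark of replication-dependent histone transcripts. Each is taken from a GENCODE 29 transcript, is written 5′ to 3′ as DNA, and has the 16 letters of the hairpin in capitals.

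HIST1H2AC: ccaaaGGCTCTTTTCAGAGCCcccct
HIST3H2A: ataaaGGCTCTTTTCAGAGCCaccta
HIST1H4H: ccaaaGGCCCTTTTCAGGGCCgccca
HIST2H4A: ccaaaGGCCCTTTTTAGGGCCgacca
H2AFX: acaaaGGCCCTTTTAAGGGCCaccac

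The search used the histone stem-loop consensus, which opens with GG, holds TTTT near its centre and closes with CC, on the transcript strand only. It occurred in 72 of 83129 protein-coding transcripts of GENCODE 29 (0.0866%), from 52 genes, of which 26 were members. Among the members these were 25 clustered genes and 1 variant gene, H2AFX, which encodes the H2A form that is phosphorylated at DNA breaks and which is known to make both a hairpin-ended and a polyadenylated transcript. Many clustered gene models in GENCODE 29 stop at or near the end of the coding sequence, so a member without a match may simply have no annotated hairpin. A poly(A) signal, AATAAA or ATTAAA, lay within the last 50 bases of at least 1 transcript for 19 of the 51 clustered genes and 9 of the 10 variant genes. This window was set after the signal of H2AFX had been seen to lie just outside a shorter one. A clustered gene without a signal may likewise lack only an annotated transcript end.

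The promoters of 5 members described below, the H3.3 pair, the linker variant and an H2B and an H2A gene that rose, are shown next, as the 250 bases before the transcription start in RefSeq (GRCh38.p14), on the strand of the gene. Capitals mark CCAAT, the octamer ATTTGCAT and TATAAA on either strand, with overlapping matches merged into 1 run.

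H3F3A, chr1:226062466-226062715, plus strand: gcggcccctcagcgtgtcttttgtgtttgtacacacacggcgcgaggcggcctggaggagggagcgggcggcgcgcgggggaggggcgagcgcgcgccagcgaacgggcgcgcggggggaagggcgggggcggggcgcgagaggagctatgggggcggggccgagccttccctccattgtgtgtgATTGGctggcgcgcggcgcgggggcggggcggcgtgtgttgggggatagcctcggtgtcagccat
H3F3B, chr17:75779780-75780029, minus strand: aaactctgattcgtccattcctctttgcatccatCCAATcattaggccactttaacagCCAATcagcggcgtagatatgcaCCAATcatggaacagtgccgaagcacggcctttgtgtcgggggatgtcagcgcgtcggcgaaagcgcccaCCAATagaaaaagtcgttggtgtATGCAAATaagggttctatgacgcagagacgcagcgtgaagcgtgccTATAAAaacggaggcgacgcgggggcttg
H1FX, chr3:129316287-129316536, minus strand: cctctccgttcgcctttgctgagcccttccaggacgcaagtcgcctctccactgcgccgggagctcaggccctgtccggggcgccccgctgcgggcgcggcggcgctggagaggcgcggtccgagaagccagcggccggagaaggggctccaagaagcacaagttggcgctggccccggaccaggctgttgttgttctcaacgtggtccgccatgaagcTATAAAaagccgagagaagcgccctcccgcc
HIST1H2BK, chr6:27146856-27147105, minus strand: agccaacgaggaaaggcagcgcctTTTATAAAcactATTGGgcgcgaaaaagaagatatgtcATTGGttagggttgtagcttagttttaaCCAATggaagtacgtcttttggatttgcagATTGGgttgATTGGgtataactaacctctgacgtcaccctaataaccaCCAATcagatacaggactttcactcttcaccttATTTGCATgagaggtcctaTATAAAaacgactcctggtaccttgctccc
HIST1H2AC, chr6:26123922-26124171, plus strand: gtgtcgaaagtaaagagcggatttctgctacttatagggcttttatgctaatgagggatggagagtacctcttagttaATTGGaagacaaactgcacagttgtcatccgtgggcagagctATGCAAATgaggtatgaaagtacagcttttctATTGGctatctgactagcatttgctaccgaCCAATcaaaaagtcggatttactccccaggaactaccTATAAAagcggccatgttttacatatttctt

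H3F3A and H3F3B encode the same protein from promoters with different letters: that of H3F3A held 1 CCAAT box, 65 bases before the start, whereas that of H3F3B held 4, an octamer and a TATAAA. The promoter of H1FX held a TATAAA and neither of the other motifs, and that of HIST1H2BK held an octamer 49 bases before the start. A RefSeq promoter was found for 57 members. CCAAT occurred in 49 of these, against 32.0% of all 35116 promoters of the same length. The octamer, long known from H2B promoters, occurred in 20, against 1.63% of all promoters, and among clustered genes in 11 of 14 H2B, 8 of 13 H2A and none of the H1, H3 and H4 promoters. TATAAA occurred in 36, against 10.7% of all promoters. These matches describe the letters only.

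The TPM totals of the table ran from 994500 to 994700. TPM keeps no read counts, and the step between low values gave an estimate of 8650000 to 9580000 reads per library, at which 1 read in a transcript of 1 kilobase is worth 0.202 to 0.229 TPM and 1 read in a shorter histone transcript proportionally more. Plasma cell markers were present in all libraries, with SDC1 between 243 and 379 TPM and XBP1 between 997 and 1274 TPM, and 4 of 9 listed markers differed between treatments (2 higher, 2 lower). Of 10 listed markers of other cells, 8 were in the table and none of the 4 tested passed (limma adjusted p 0.0521 to 0.927; CD3E and HBB had an unadjusted p under 0.05), with CD14 at 0.99 TPM or less. LYZ, at 37.0 to 46.2 TPM, was the highest of them.

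Clustered histone transcripts were scarce and variant transcripts abundant in every library. The 51 clustered genes together summed to 124 and 135 TPM with DMSO and 153 and 165 TPM with JG342. Nearly all of the difference between these sums came from HIST1H1C and HIST1H2BK, and the remaining clustered genes together hardly differed between same-numbered libraries. The 10 variant genes summed to 4701 and 5213 TPM with DMSO and 4209 and 4817 TPM with JG342. Clustered genes thus held between 2.52% and 3.50% of all histone TPM. The median clustered gene had a mean of 0.853 TPM, and the median variant gene 259 TPM. Only 3 clustered genes reached a mean of 10 TPM, compared with 7 of the 10 variant genes, and 29 clustered genes were listed at 0 in at least 1 library. Clustered genes with an annotated poly(A) signal near a transcript end had a median of 1.14 TPM (19 genes) and those without one 0.736 TPM (32 genes). Whether the library preparation set these levels was not tested.

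**Figure D1:**
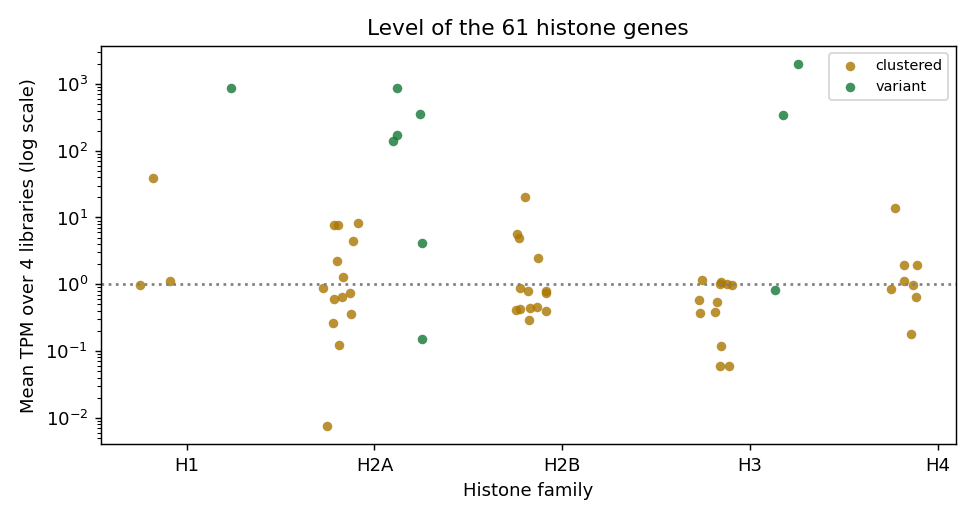
Mean TPM over the 4 libraries (log scale) for each of the 61 histone genes, by family, with clustered genes in ochre and variant genes in green; the dotted line is the 1 TPM limit for testing. Of the clustered genes only HIST1H1C, HIST1H2BK and HIST1H4C lie above 10 TPM, while 7 variant genes do, the lowest of them H2AFX at 141 TPM.

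JG342 was followed by higher levels of some clustered genes, a lower level of HIST1H4C and mixed changes of the variant genes. Of the 28 tested genes, 12 differed at a limma adjusted p under 0.05 (8 higher and 4 lower), while 18.4% of all 12042 tested genes did so. Among clustered genes 7 rose (HIST2H4A, HIST2H4B, HIST1H2AC, HIST1H4H, HIST3H2A, HIST1H2BK and HIST1H1C) and 1 fell (HIST1H4C), of 20 tested. Of the 7, 4 were tested only because their JG342 values lifted the mean to 1 TPM, so this tally does not support a direction. With a filter at a mean of 5 TPM, 2 clustered genes rose and 1 fell, and 8 histone genes passed in all (4 higher, 4 lower). Of all tested genes 10.8% rose and 7.62% fell, as 1304 and 917 genes, and scaling the libraries to equal medians turned these into 966 and 1200 while the histone counts stayed at 8 and 4. HIST2H4A and HIST2H4B are identical copies with the same deposited values, so they are 1 measurement and the 7 rises are 6. Among variant genes H1FX rose and H3F3A, H2AFY and H2AFV fell, of 8 tested. Each fold change here is on the log2(TPM + 1) scale. The median log2 fold change was 0.26 for the tested clustered genes, −0.26 for the tested variant genes and 0.03 for all tested genes. The clustered median includes these 4 genes that entered through their JG342 values. It also includes HIST1H1E and HIST1H3E, which likewise averaged under 1 TPM with DMSO. In the other direction, HIST1H3J and HIST1H3C averaged under 1 TPM with JG342 and entered through their DMSO values. The clustered median was 0.12 with the filter of 5 TPM and 0.12 without a filter. With the filter of 5 TPM only 7 clustered genes were fitted. Their median is the shared value of HIST2H2AA3 and HIST2H2AA4, identical copies that are 1 measurement. The classes differ in level, and the median over all genes also differed with level: it was 0.08 for those averaging under 10 TPM, of which 10.7% passed, and −0.07 for those at 100 TPM or more, of which 29.3% passed. The difference between the classes was not tested, since the members were chosen with results known. In bulk RNA, a change in the share of cells that express a gene and a change per cell cannot be told apart. Values of the treatments did not overlap for 11 of the 20 clustered genes and all 8 variant genes, where 62.1% of all tested genes did not overlap. Without DMSO replicate 2, 6 histone genes passed, all higher. Of the variant genes 2 passed without DMSO replicate 1, and only H1FX without DMSO replicate 2 or JG342 replicate 1. When every gene with a value above 0 was fitted, 4 passed, of which HIST1H2AC and HIST3H2A were among the 12.

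**Figure D2:**
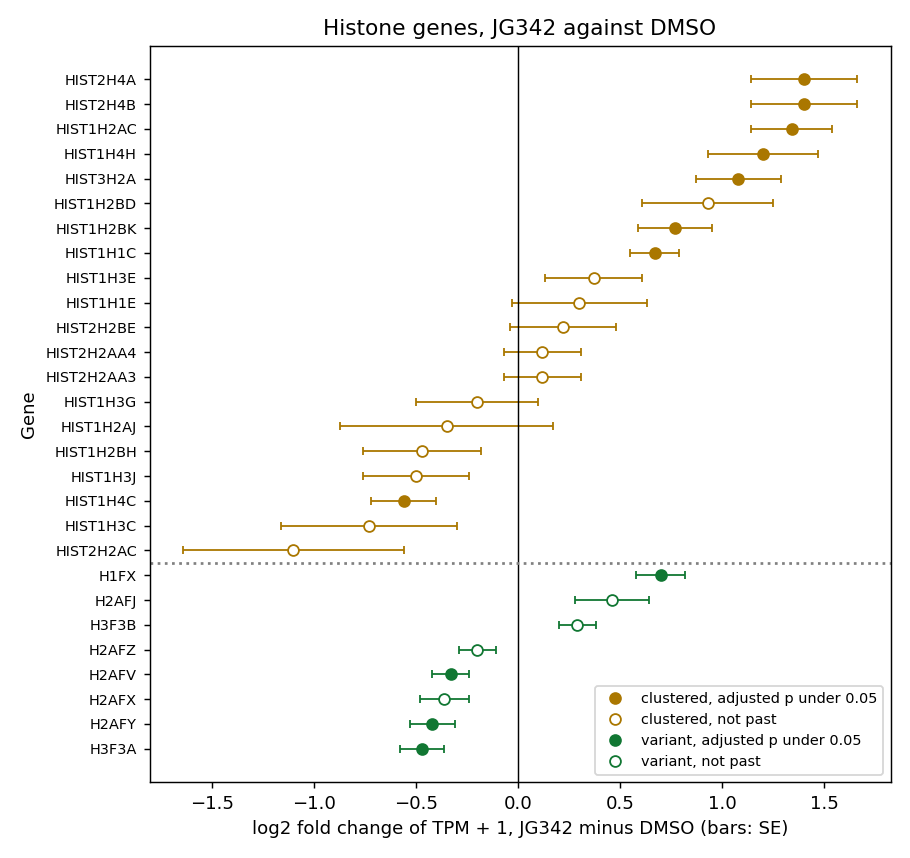
Log2 fold change of TPM + 1 between JG342 and DMSO (bars are the standard error, n = 2 per treatment) for the 20 clustered and 8 variant histone genes tested; filled points have a limma adjusted p under 0.05. The 7 filled clustered genes on the right include both copies of HIST2H4, and HIST1H4C is the filled clustered gene on the left.

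Linker histone transcripts rose from both kinds of gene. HIST1H1C (NM_005319) encodes H1.2, a common linker histone, and was the most abundant clustered transcript, at 32.5 and 27.3 TPM with DMSO and 50 and 46.2 TPM after JG342. Both JG342 values lay above both DMSO values, and the log2 fold change was 0.67 with an SE of 0.12 (limma adjusted p 0.00802). H1FX (NM_006026) encodes H1.X, a linker variant outside the clusters, and stood at 642 and 677 TPM with DMSO and 952 and 1211 TPM with JG342. It rose by 0.70 ± 0.12 (limma adjusted p 0.00600), and leaving out any 1 library gave between 0.53 and 0.88. Without DMSO replicate 2, H1FX still passed and HIST1H1C did not. HIST1H1C made up between 3.67% and 4.99% of the summed TPM of the pair, with overlapping values between treatments. HIST1H1E (NM_005321), which encodes H1.4, was near the detection limit at 0.57 and 1.15 TPM with DMSO and 0.61 and 2.16 TPM with JG342, with overlapping values (0.30 ± 0.33, limma adjusted p 0.571). HIST1H1D was not tested, with values from 0.29 to 2.18 TPM.

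The rises with the highest fold changes were those of H2A and H4 genes of low level. Of these, HIST2H4A, HIST2H4B, HIST3H2A and HIST1H4H averaged under 1 TPM with DMSO and entered the test only through their JG342 values, so the filter favoured a rise in them. HIST1H2AC (NM_003512), a canonical H2A gene known to make a polyadenylated form, was at 2.39 and 1.70 TPM with DMSO and 5.84 and 7.58 TPM with JG342. The treatments did not overlap and differed by 1.34 in log2 units, with an SE of 0.20 (limma adjusted p 0.00339), and the gene passed in every alternative fit that included it. HIST3H2A (NM_033445), the H2A gene of the small HIST3 cluster, was at 0.47 TPM in both DMSO libraries and at 2.00 and 2.22 TPM with JG342. It differed by 1.08 ± 0.21 (limma adjusted p 0.00974), from DMSO values worth very few reads. Without JG342 replicate 2 its mean fell below 1 TPM and it was not fitted. HIST2H4A and HIST2H4B (NM_003548 and NM_001034077) each stood at 0.30 and 0.92 TPM with DMSO and 3.86 and 2.57 TPM with JG342, a difference of 1.40 ± 0.26 (limma adjusted p 0.00851). HIST1H4H (NM_003543) was listed at 0 and 0.65 TPM with DMSO and at 2.06 and 1.83 TPM with JG342 (1.2 ± 0.27, limma adjusted p 0.0185). Both H4 differences had no overlap between treatments, and that of HIST1H4H did not pass without DMSO replicate 1 (limma adjusted p 0.0886). Without either JG342 library HIST1H4H was below the filter and was not fitted.

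HIST1H2BK (NM_001312653), an H2B gene known to make a polyadenylated form, was the next most abundant clustered gene, at 17.3 and 11.99 TPM with DMSO and 28.1 and 22.9 TPM with JG342. It rose by 0.77 in log2 units, with an SE of 0.18 (limma adjusted p 0.0197), without overlap, and did not pass without DMSO replicate 2 or JG342 replicate 1. Its transcript matches that of H2BFS at 99.0% identity over its whole length in GENCODE 29, and how reads were divided among the copies is not known. HIST1H1C and HIST1H2BK together held 40.1% and 29.1% of clustered TPM with DMSO and 51.2% and 41.9% with JG342. HIST1H2BD (NM_021063) is an H2B gene that, unlike HIST1H2BK, has an annotated poly(A) signal near a transcript end. HIST1H2BD had 2.30 and 4.78 TPM with DMSO and 5.21 and 10.1 TPM with JG342. Its values did not overlap, but the spread within treatments was wide and it did not pass (0.93 ± 0.32, limma adjusted p 0.0753).

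Not all clustered genes moved upward. HIST1H4C (NM_003542), the most abundant H4 gene here and a canonical S-phase gene, was at 14.7 and 19.2 TPM with DMSO and 11.1 TPM in both JG342 libraries. It fell by 0.56 in log2 units, with an SE of 0.16 (limma adjusted p 0.0376) and did not pass without DMSO replicate 2, JG342 replicate 1 or JG342 replicate 2. HIST2H2AC (NM_003517) had the most negative value, −1.10 ± 0.54, and did not pass (limma adjusted p 0.190). Leaving out 1 library moved the value between −1.99 and −0.21, and it passed without DMSO replicate 1 (limma adjusted p 0.0267) and without JG342 replicate 2 (limma adjusted p 0.0289). The treatments overlapped and each spread widely, at 4.82 and 18.9 TPM with DMSO and 2.25 and 6.81 TPM with JG342. HIST1H3C (NM_003531) stood at 0.51 and 2.58 TPM with DMSO and at 0 and 0.97 TPM with JG342 (−0.73 ± 0.43, limma adjusted p 0.275). HIST2H2AC and HIST1H3C were higher in replicate 2 than in replicate 1 under both treatments, as were 6 of the 20 tested clustered genes in all, while 5 were lower in both. HIST2H2AA3 and HIST2H2AA4, a further pair of identical copies, ran at 9.07 and 5.95 TPM with DMSO and 8.30 and 7.91 TPM with JG342, with overlap (0.12 ± 0.19, limma adjusted p 0.701). The remaining 6 tested clustered genes, HIST1H2BH, HIST2H2BE, HIST1H2AJ, HIST1H3G, HIST1H3J and HIST1H3E, had log2 fold changes between −0.50 and 0.37, and none passed.

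**Figure D3:**
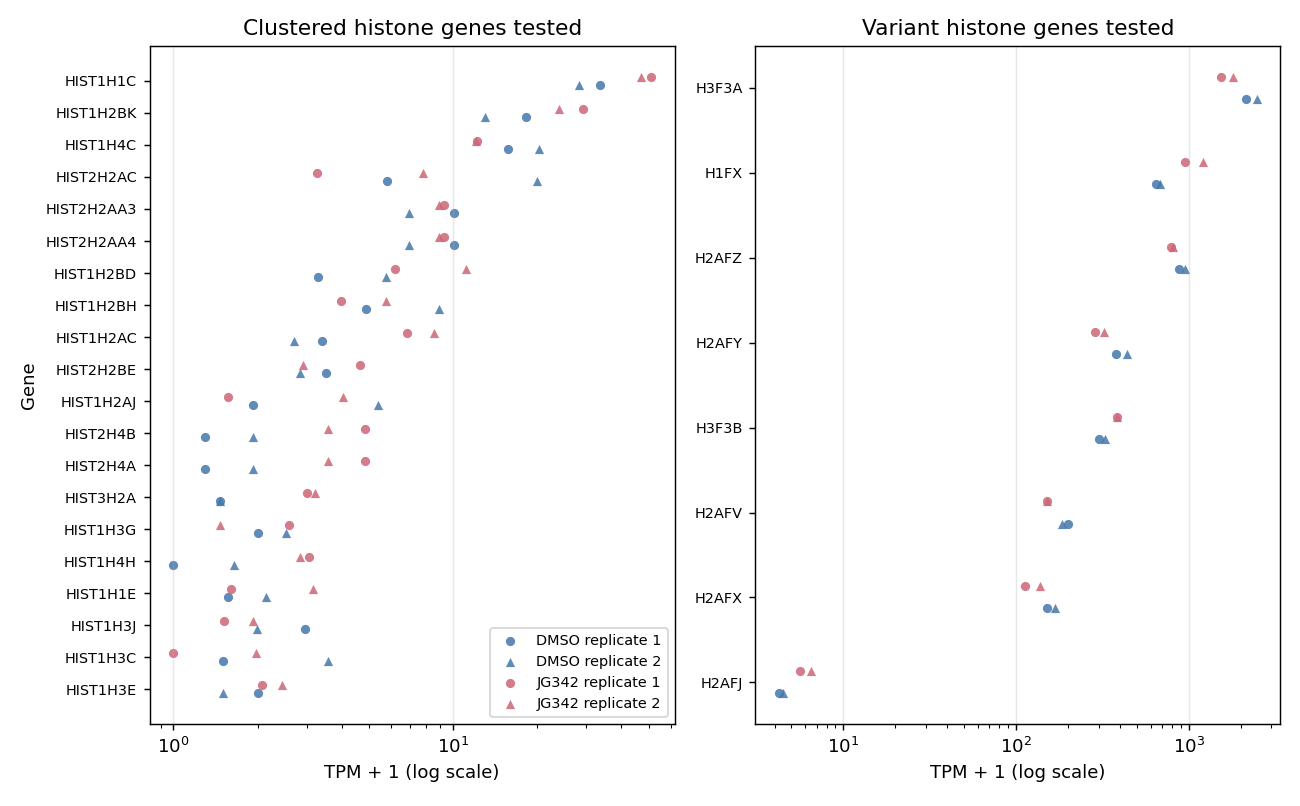
TPM + 1 (log scale) of each tested histone gene in each of the 4 libraries, DMSO in blue and JG342 in red, circles for replicate 1 and triangles for replicate 2. HIST1H2AC, HIST3H2A, HIST2H4A and HIST1H4H separate by treatment at low levels, HIST2H2AC spreads widely within each treatment, and all 8 variant genes separate by treatment. Of all 12042 tested genes 62.1% separate in this way. HIST3H2A, HIST2H4A and HIST1H4H entered the test only through their JG342 values, which favoured their separation.

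Summed by family, clustered H1 and H2B levels lay higher with JG342, H3 levels lay lower, and H2A and H4 levels overlapped; these sums were not tested. The H1 sum was 33.3 and 29.6 TPM with DMSO and 50.9 and 50.5 TPM with JG342, and HIST1H1C made up nearly all of it. The H2B sum was 33.5 and 31.4 TPM with DMSO and 41.9 and 47.8 TPM with JG342. Without HIST1H2BK the sums of the other H2B genes overlapped between treatments. The H3 sum was 8.28 and 7.73 TPM with DMSO and 5.81 and 7.60 TPM with JG342, a gap smaller than the spread within JG342. Sums for H2A (30.8 to 42.3 TPM) and H4 (18 to 23.8 TPM) overlapped between treatments. In H4 the rises of HIST2H4A, HIST2H4B and HIST1H4H stood beside the fall of HIST1H4C. Clustered H3 genes were the scarcest: the highest of the 12, HIST1H3G, had a mean of 1.15 TPM.

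H2A and H2B genes often lie head to head with starts within 500 bases of each other, and 7 such pairs of members were found in RefSeq. The partners had unlike levels in the pairs that contain a tested gene. HIST1H2AC, which rose, had a mean of 4.38 TPM, and its partner HIST1H2BC had 0.793 TPM, with 2.00 and 0 TPM with DMSO and 0 and 1.17 TPM with JG342. HIST2H2AC was paired with HIST2H2BE (NM_003528), at 2.52 and 1.84 TPM with DMSO and 3.66 and 1.91 TPM with JG342 (0.22 ± 0.26 SE, limma adjusted p 0.587). In both of these pairs the partner did not pass or was too low to test.

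H3.3, the variant H3 placed into chromatin outside replication, is encoded by H3F3A and H3F3B, and their transcripts gave differences of opposite sign, of which that of H3F3A passed the test. H3F3A (NM_002107), the most abundant histone transcript, was at 2151 and 2465 TPM with DMSO and 1535 and 1795 TPM with JG342. It fell by 0.47 in log2 units, with an SE of 0.11 (limma adjusted p 0.0220), with all JG342 values below all DMSO values. Leaving out any 1 library gave −0.59 to −0.36, and it passed in that check only without JG342 replicate 2. H3F3B (NM_005324) was at 300 and 326 TPM with DMSO and 381 and 384 TPM with JG342, without overlap and with a log2 fold change of 0.29 ± 0.09 that missed the threshold (limma adjusted p 0.0559). H3F3B accounted for 12.2% and 11.7% of the summed H3.3 transcripts with DMSO and for 19.9% and 17.6% with JG342. The summed H3.3 level was 2451 and 2791 TPM with DMSO and 1916 and 2180 TPM with JG342. H3F3C, a primate copy of H3F3B that encodes H3.5, was too low to test, at 0.30 to 1.51 TPM.

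**Figure D4:**
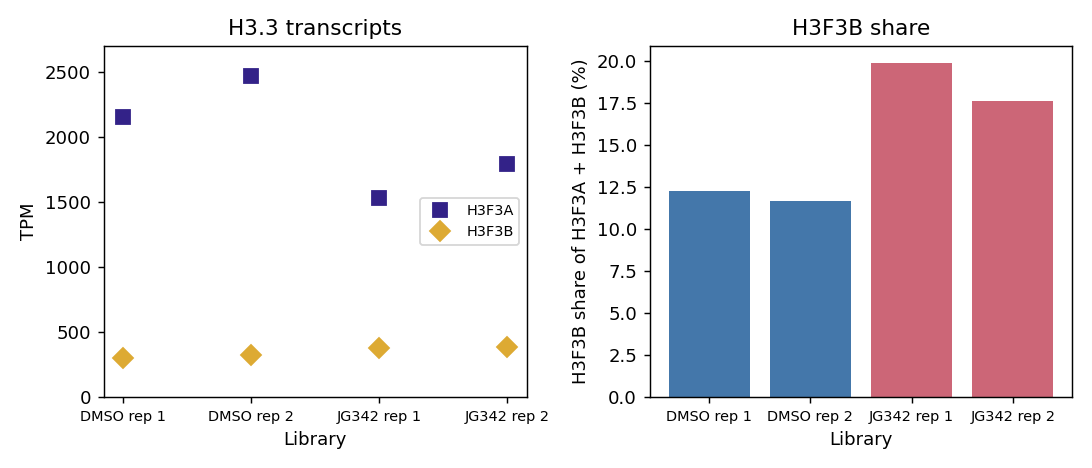
Left, TPM of H3F3A (squares) and H3F3B (diamonds) in each library; right, H3F3B as a percentage of the 2 genes' summed TPM, bars from 0, DMSO in blue and JG342 in red. H3F3A is lower and the H3F3B share higher in both JG342 libraries, at 19.9% and 17.6% against 12.2% and 11.7% with DMSO.

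Among the H2A variants H2AFY and H2AFV fell, and H2AFZ, H2AFX and H2AFJ did not pass. H2AFY (NM_001040158) encodes macroH2A1, a large H2A form found in silent chromatin, and was at 378 and 439 TPM with DMSO and 286 and 322 TPM with JG342. It fell by 0.42 in log2 units, with an SE of 0.11 (limma adjusted p 0.0278), and did not pass without DMSO replicate 2 or JG342 replicate 1. H2AFV (NM_012412), which encodes H2A.Z.2, fell from 198 and 183 TPM to 151 TPM in both JG342 libraries, by 0.33 ± 0.09 (limma adjusted p 0.0381). It did not pass when any 1 library was left out, with values from −0.39 to −0.28. H2AFZ (NM_002106), the gene of the closely related H2A.Z.1 and a mark of active promoters, was at 878 and 952 TPM with DMSO and 788 and 809 TPM with JG342 (−0.20 ± 0.09, limma adjusted p 0.168). H2AFX (NM_002105) was at 151 and 166 TPM with DMSO and 112 and 137 TPM with JG342 (−0.36 ± 0.12, limma adjusted p 0.0687). Both had lower JG342 than DMSO values in all libraries but missed the threshold. H2AFJ (NM_177925), an H2A gene reported to build up in senescent cells, was much lower in level, at 3.25 and 3.48 TPM with DMSO and 4.58 and 5.49 TPM with JG342 (0.46 ± 0.18, limma adjusted p 0.0986). H2AFY2, the gene of macroH2A2, was at 0.30 TPM or less.

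The genes that switch on the histone clusters and process their transcripts were lower where they passed, apart from 1. Of 24 listed genes, all tested, 7 passed (6 lower, 1 higher) and the median log2 fold change was −0.23. Of all tested genes 18.4% passed, and of those averaging 100 TPM or more, 29.3%. SLBP (NM_001306074), the hairpin-binding protein, was at 195 and 199 TPM with DMSO and 133 and 158 TPM with JG342, and fell by 0.44 in log2 units, with an SE of 0.11 (limma adjusted p 0.0234). CDK2, the kinase whose complex with cyclin E activates NPAT at the clusters, fell by 0.68 ± 0.14, E2F1, a transcription factor of S-phase entry, by 0.47 ± 0.10, and SRRT, a cap-complex partner, by 0.51 ± 0.10. Their limma adjusted p-values were 0.0103, 0.0161 and 0.0111. NPAT, the clusters' coactivator, and CASP8AP2, its partner in 3′ end processing, had values of −0.29 ± 0.15 and −0.39 ± 0.13 and did not pass (limma adjusted p 0.214 and 0.0652). TUT7, which adds uridines to histone transcripts that are to be degraded, rose by 0.43 ± 0.11 (limma adjusted p 0.0297) and was named because it was the only gene of the list to rise. After scaling to equal medians, 9 genes of the list passed, all lower, so TUT7 no longer passed the threshold as higher. Between 1 and 3 genes of this list passed without DMSO replicate 1, DMSO replicate 2 or JG342 replicate 1.

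Histone chaperones carry new histones to DNA. A list of chaperone and deposition genes, called chaperone genes here, showed 12 lower and no higher genes among 33 tested. Its median was −0.22, where 7.62% of all tested genes fell. CENPA, itself a histone and described below, is in this list and among the 12. HAT1, the enzyme that acetylates new H4, fell by 0.66 in log2 units, with an SE of 0.11 (limma adjusted p 0.00507). SUPT16H, a subunit of the FACT complex, fell by 0.64 ± 0.11 (limma adjusted p 0.00602). The chromatin assembly subunits CHAF1A and CHAF1B fell by 0.49 ± 0.10 and 0.43 ± 0.11 (0.0114 and 0.0303 as limma adjusted p-values), and their supplier ASF1B by 0.61 ± 0.13 (limma adjusted p 0.0127). NASP, which holds the soluble store of H3 and H4, fell by 0.47 ± 0.10 (limma adjusted p 0.0156). The chaperones of H3.3 gave smaller values, none past the threshold: HIRA −0.18 ± 0.12, DAXX −0.20 ± 0.10 and ATRX 0.09 ± 0.13 (limma adjusted p 0.306, 0.196 and 0.663).

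For H2A.Z, ANP32E, which removes it from chromatin, fell by 0.61 in log2 units, with an SE of 0.13 (limma adjusted p 0.0131), whereas VPS72, which helps deposit it, was at 0.21 ± 0.09 (limma adjusted p 0.157). CENPA, the centromeric H3, fell by 0.41 ± 0.12 (limma adjusted p 0.0442), its chaperone HJURP was at −0.22 ± 0.15 (limma adjusted p 0.327), and the loading factor OIP5 fell by 0.83 ± 0.16 (limma adjusted p 0.0103). Genes of DNA replication in S phase were lower as well: 26 of 35 passed, all lower, with a median of −0.53, beside the same 7.62% of all genes. RRM2, RRM1 and FEN1 had the smallest p-values and fell by 1.01, 0.74 and 0.78. The part of S-phase cell content in the histone differences was not tested. Leaving out DMSO replicate 1, DMSO replicate 2 or JG342 replicate 1 left 5, 2 and 7 chaperone genes and 18, 8 and 14 replication genes, all lower.

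The 33 histone genes below 1 TPM were left out of the test. They comprised 31 clustered genes, of which 27 were listed at 0 in at least 1 library, and the variants H3F3C and H2AFY2. HIST1H3F was at 0.50 and 0.51 TPM with DMSO and at 0 and 0.48 TPM with JG342, values worth very few reads at the estimated depth. HIST1H2BG, an H2B gene, was at 1.06 and 1.07 TPM with DMSO and at 0 and 1.00 TPM with JG342. HIST1H1D, HIST2H3PS2 and HIST1H4I lay just under the limit, at means of 0.985, 0.978 and 0.973 TPM, and HIST1H3E and HIST1H3C just over it, at 1.01 and 1.02 TPM. When every gene with a value above 0 was fitted, HIST1H2AI and HIST1H2BJ passed in this range, both lower with JG342 (limma adjusted p 0.0406 and 0.0333). Their DMSO values were likewise worth very few reads. With 1 library left out, HIST1H4I had a log2 fold change of 1.38 without DMSO replicate 1. HIST1H2AM had −1.31 without JG342 replicate 1. Each reached 1 TPM in that fit only through the treatment in which it was higher, so the filter favoured its direction.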

How the data were processed

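RNA was sequenced on a BGISEQ instrument from MM.1S cells, with 2 DMSO and 2 JG342 libraries grouped by their titles. The authors deposited 1 value per gene and library with a symbol and a RefSeq accession. Its unit is not stated in the header, and the deposited values were taken as TPM because the libraries have nearly equal totals, 994500 to 994700. HISAT2 2.0.4, Bowtie2 2.2.5 and RSEM 1.2.12 are named in the submitters' processing notes. Genome build and annotation are not given in the sources used here.

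Values were put on the log2(TPM + 1) scale, and 12042 genes averaging 1 TPM or more were fitted with limma 3.58.1 in R 4.3.3 (lmFit, eBayes with trend, treatment only, two-sided, Benjamini-Hochberg over all fitted genes, threshold 0.05), with 2 residual and 6.89 prior degrees of freedom. The fit was tested on simulated data. Members and lists were chosen with earlier results of these data known. Named were all tested variants, all members past the threshold, the 5 highest clustered genes with the 3 largest rises and falls, and from each other list the 3 smallest p-values plus fixed regulators. Copies were sought in GENCODE 29 with BLAST 2.17.0 at 95% identity over at least 50% of the transcript. By that search 14 clustered genes and 1 variant gene had a near-identical copy, so reads may be split among them. Alternatives were other pseudocounts, filters and scaling, a replicate block, and each library left out. Depth was estimated from the most frequent TPM times length among low values and entered no test.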

Additional observations from a re-analysis of the deposited data

Results flagged for a closer look

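Among the clustered genes left out of the test, 2 had a value in each JG342 library and in no DMSO library. HIST1H2BN stood at 0.59 and 1.18 TPM and HIST1H2AG at 0.99 and 0.44 TPM in JG342 replicates 1 and 2. They are given because they lay outside the main test. When every gene with a value above 0 was fitted, neither passed (limma adjusted p 0.0573 for HIST1H2BN and 0.0768 for HIST1H2AG). In the opposite direction 2 genes had a value in each DMSO library and in no JG342 library, HIST1H2BJ (0.56 and 0.62 TPM with DMSO) and HIST1H2AI (1.63 and 0.95 TPM with DMSO). In that fit both of these passed (limma adjusted p 0.0333 for HIST1H2BJ and 0.0406 for HIST1H2AI). The values of all these genes are worth very few reads at the estimated depth.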

How the results depend on the processing

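Pseudocounts of 0.1 and 5 and scaling to equal medians kept all 12 histone genes past the threshold. Fitting every gene with a value above 0 left 828 genes past the threshold in place of 2221, 4 histone genes in place of 12 (4 clustered and 0 variant by limma, with 8 variant genes at an unadjusted p under 0.05), 0 genes of mRNA synthesis and processing (11 at an unadjusted p under 0.05), 4 chaperone genes and 11 replication genes. A filter of 5 TPM left 3 clustered genes, since 5 of the 8 were no longer fitted.

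The median log2 fold change of clustered genes, 0.26, became 0.38 with a pseudocount of 0.1, 0.11 with one of 5, 0.12 without a filter and 0.12 with the filter of 5 TPM. A pseudocount weighs most on low values: the log2 fold change of HIST1H4H was 2.9, 1.2 and 0.39 with pseudocounts of 0.1, 1 and 5. With the filter of 5 TPM 7 clustered genes were fitted. Their median was the shared value of the identical copies HIST2H2AA3 and HIST2H2AA4. The cause of the shift without a filter was not tested.

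With 1 library left out, counts ran from 773 to 1905 for all genes, 6 to 11 for histone genes, 5 to 9 for clustered and 1 to 4 for variant genes, 1 to 7 for mRNA synthesis and processing, 2 to 12 for chaperones and 8 to 28 for replication. The clustered median ran from 0.18 to 0.39, and that of HIST2H2AA3 from -0.15 (without DMSO replicate 2, its only change of sign) to 0.39. A lone library in a treatment was assumed to vary like the other treatment.

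Same-numbered libraries share a number and the start of their descriptions, whose meaning is not stated. Their deviations correlated at r = 0.27 across 12042 genes, which are not independent. With the replicate block 4207 genes passed, among them 20 histone genes and 13 genes of mRNA synthesis and processing. The 20 included all 8 tested variant genes, HIST1H2BD, HIST1H2BH, HIST1H3C and HIST2H2AC. HIST1H3C averaged 0.485 TPM with JG342 and was fitted only through its DMSO values, so the filter favoured a fall in it. HIST2H2AC was at a limma adjusted p of 2.1e-09, or 0.00108 with scaling, but at 0.190 in the main fit. The block leaves fewer residual degrees of freedom than the main fit, so its p-values lean more on the variance of other genes. The replicate block with scaling to equal medians gave 3985, 17, 13 and, for chaperones, 21. Depth limits the clustered genes most, many of which rest on very few reads.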
